A study of Mus musculus with 16 samples.

Results

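The hypothalamus of mice in which Rai1 was deleted with Vglut2-Cre was compared with wild-type hypothalamus at 8 weeks of age, in 4 of the 16 RNA-sequencing libraries of the study. Both groups held 2 libraries. The mice were of the first generation (F1) of the strain given as B6/129, and the genotypes were wild type and Vglut2-Cre;Rai1CKO. The tissue was frozen on dry ice and total RNA was taken with Trizol. The 4 libraries were fitted alone, over the 11616 of 24176 listed genes that had at least 1 RPKM (reads scaled to gene length and library size) in at least 2 of them. The labels do not say whether the wild-type mice carried Cre or floxed alleles, which part of Rai1 was removed, or whether the replicates were separate animals. The p-values therefore measure how far these libraries differ from one another, and that spread may be technical.

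Rai1 encodes a nuclear protein that binds chromatin and regulates transcription, and loss of a copy in people causes Smith-Magenis syndrome, with overeating, obesity and disturbed sleep. Vglut2, the product of Slc17a6, loads glutamate into synaptic vesicles, and its locus drives Cre in glutamatergic neurons. Many hypothalamic neurons that set appetite, body temperature, hormone release and arousal are glutamatergic, while many others use GABA, and glia are not targets of this driver. In whole tissue, a smaller number of cells of a type and less RNA per cell cannot be told apart.

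In the hypothalamus of the mice labelled knockout, transcripts of the neuropeptide genes Tac1 and Npy, of the GABA-A receptor subunit Gabra2, of the serotonin receptor Htr2c and of the adhesion gene Pcdh20 were at 53.1% to 59.8% of their wild-type level. With limma on log2(RPKM + 0.5) and Benjamini-Hochberg adjustment, 21 genes fell at an adjusted p under 0.05, or 0.181% of those tested. Another 4 genes rose, or 0.0344%, and 1 of them was Rai1 itself. Of the 25 called genes, 7 are short RNA genes that span under 200 bases, of 49 such genes tested. Another limit is the filter: 5 of the 25 (Mir6989, Snora43 and Ly86 among those that fell, Mir1197 and Snora52 among those that rose) reached 1 RPKM only in the 2 libraries of the group where they are high, so they had to differ and their calls are no support. Without them 18 genes fell and 2 rose. The 17 genes that fell and are not short RNA genes, Ly86 among them, were at 36.8% to 65.1% of their wild-type level. In all 17 both libraries labelled knockout were below both wild-type libraries, as in 25% of all tested genes. The calls come from the same 4 libraries, so this is no separate support for them. Values shifted downward over the whole table as well: 8143 genes (70.1%) had a negative change, and the median change was -0.06 on the log2 scale.

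**Figure D1:**
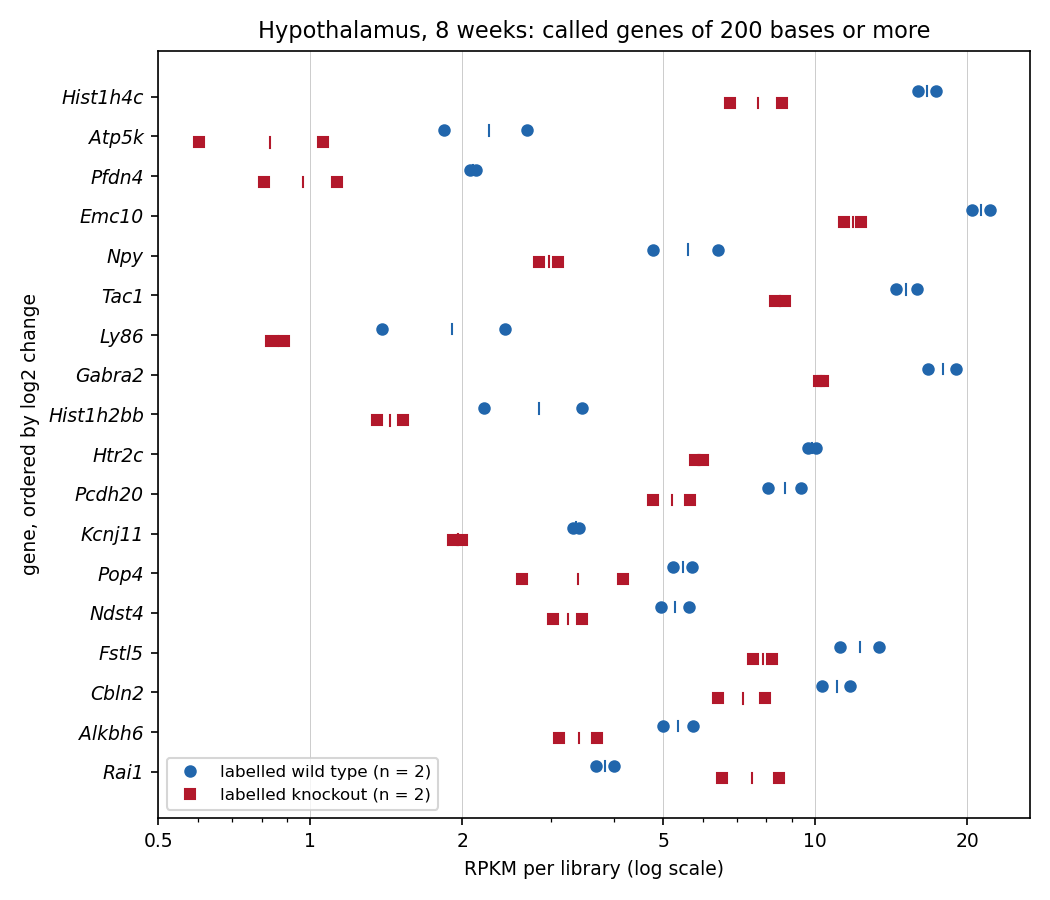
RPKM of the 18 called genes of 200 bases or more in each of the 4 libraries, on a log axis. Circles are libraries labelled wild type, squares are libraries labelled knockout, and short bars are the group means. In each of the 18 genes the 2 groups do not overlap, and Rai1 is the gene in which the squares lie to the right. The genes were called from these same libraries. Over all tested genes, 25% were lower and 9.15% higher without overlap.

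The tissue label was checked against marker genes. Transcripts that define hypothalamic neurons were present in all 4 libraries: Pmch, the precursor of melanin-concentrating hormone, was at 61.6 to 90.2 RPKM and did not exceed 1.33 RPKM in any cortical or striatal library. Avp, the vasopressin precursor, was at 40.4 to 52.6 RPKM. Slc17a7, the vesicular glutamate transporter of cortex, was at most 0.139 RPKM, against up to 128.9 RPKM elsewhere in the study. The pituitary genes Gh, Prl and Pou1f1 were listed at 0 in the 4 libraries, but other pituitary genes were not. Tshb was at 0.9285 and 0.4986 RPKM in wild type and at 0.4081 and 0.24 RPKM in the libraries labelled knockout. Cga was at 0 and 1.241 RPKM against 0 and 0.448 RPKM, so traces of pituitary are not excluded. The 6 listed globin genes were at 0 in all 16 libraries of the study, near-identical copies among them, so they check nothing here, and the erythroid gene Alas2 was at 0.867 to 2.61 RPKM. Replicates correlated at 0.991 in wild type and 0.99 in the libraries labelled knockout, over log2(RPKM + 0.5) of the tested genes, and libraries of different groups at 0.987 to 0.991. These are correlations across genes, which are not independent replicates.

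Rai1 was higher, not lower, in the libraries labelled knockout. The wild-type libraries had 3.69 and 3.99 RPKM and the libraries labelled knockout 8.47 and 6.52 RPKM. The groups did not overlap, and the gene rose by 0.87 ± 0.13 on the log2 scale (SE, n = 2 libraries a group; limma adjusted p = 0.000333), to 195.2% of the wild-type mean. The table gives 1 value for the whole gene, which does not isolate the removed part and checks neither the deletion nor the labels. The higher value neither bears out nor contradicts the label, and for that reason these libraries are called "labelled knockout" throughout. In the other sets the corresponding changes were 0.86 in striatum at 3 weeks, 1.28 in striatum at 12 weeks and -0.42 in cortex at 3 weeks, where other Cre drivers and another strain were used. Of the 28 tested genes on the list of those that flank Rai1, 0 passed in limma and 0 had an unadjusted p under 0.05. After median-ratio scaling of the libraries the adjusted p of Rai1 was 0.122, and the call was lost.

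Slc17a6, the gene whose regulatory sequence drives Cre, was at 42.5 and 42.4 RPKM in wild type and at 31.0 and 32.0 RPKM in the libraries labelled knockout. Both libraries labelled knockout were lower, at 74.2% of the wild-type mean, but the change of -0.42 ± 0.13 (SE) did not pass (limma adjusted p = 0.333). GABA neuron genes were also measured: Gad2, which makes GABA, was at 40.7 and 50.1 RPKM in wild type and 31.2 and 41.2 RPKM in the libraries labelled knockout, with overlapping groups. Of the 18 tested genes of transmitter synthesis and transport, 0 passed in limma and 3 had an unadjusted p under 0.05. A negative change was found in 15 of the 18, where 70.1% of all genes had one. After median-ratio scaling it was found in 12, where 49.1% of all genes had one. Nos1, the neuronal nitric oxide synthase, went the other way, from 4.10 and 4.02 to 6.34 and 5.30 RPKM (0.46, adjusted p = 0.168).

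Among the short genes, Mir700, Mir6989 and Mir7019 fell, and their mature products are shown because 2 of them had the largest changes in the table. The sequences come from RefSeq (build GRCm38.p6), 5′ to 3′, with the seed (bases 2 to 8), which pairs with target mRNAs, in capitals. Mir700 lies on the minus strand with its arms at chr4:135416561-135416581 and chr4:135416601-135416622, Mir6989 on the plus strand at chr19:6346485-6346506 and chr19:6346523-6346544, and Mir7019 on the minus strand at chr4:138316132-138316154 and chr4:138316173-138316195.
mmu-miR-700-3p: cACGCGGGaaccgaguccacc
mmu-miR-700-5p: uAAGGCUCcuuccugugcuugc
mmu-miR-6989-5p: uUGGGGACagaggcacaggaug
mmu-miR-6989-3p: uGUCCACUgucucuggucccag
mmu-miR-7019-3p: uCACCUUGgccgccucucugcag
mmu-miR-7019-5p: aUCUGGGAggggcugucaggagu
No seed is shared among these 6 arms. The deposited values count reads over the whole short gene and do not separate these mature products from precursor or host RNA.

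Mir700 was at 4.67 and 4.89 RPKM in wild type and at 1.11 and 1.12 RPKM in the libraries labelled knockout, a change of -1.71 ± 0.13 (SE, limma adjusted p = 3.59e-10). Behind these values stand 16, 18, 4 and 4 counted read units, recovered from the step that 1 unit makes in RPKM. The gene overlaps an exon of Rcan3, a calcineurin regulator, on the same strand. Rcan3 itself was at 14.3 and 14.95 RPKM in wild type and at 11.3 and 14.0 RPKM in the libraries labelled knockout, with an adjusted p of 0.923. Mir6989 was at 2.13 and 1.32 RPKM in wild type and at 0 in both libraries labelled knockout, which is 6, 4, 0 and 0 units. A floor of 3 units per library would put it at least 1.69-fold lower, but only if units are separate reads. Short-gene values were mostly even (83.6% to 88.3% per library), so units may be paired read ends, and no minimum fold is drawn. Mir6989 also entered the test only through the wild-type libraries. Its host Map4k2, in an intron of which it lies, was at 4.82 and 4.21 RPKM against 4.37 and 3.96 RPKM.

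Mir7019, which overlaps an exon of the mitochondrial kinase gene Pink1, was at 5.34 and 3.73 RPKM in wild type and at 2.54 and 1.92 RPKM in the libraries labelled knockout (16, 12, 8 and 6 units; -0.87, adjusted p = 0.00111). Without wild-type replicate 1 its adjusted p was 0.101. Snora43, a guide RNA for pseudouridylation, was at 1.66 and 2.62 RPKM against 0.947 and 0.954 RPKM, so it too entered through the wild-type libraries alone and could not be tested without either of them. The 3 short genes that rose were as low. Mir1197 went from 0 and 3 units to 6 and 6 units, and Snora52, which overlaps an exon of the ribosomal protein gene Rplp2, from 1 and 4 to 7 and 7 units, and both reached 1 RPKM only in the libraries labelled knockout. Mir3471-1 rose from 1.38 and 0.429 RPKM to 3.51 and 1.77 RPKM (1.19 ± 0.22 SE, adjusted p = 0.00571). Without 1 wild-type library the calls were lost: the adjusted p was 0.409 for Mir1197 and 0.708 for Snora52 without replicate 1, and 0.0826 for Mir3471-1 without replicate 2. Intervals and floors on such units cover counting error only.

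**Figure D2:**
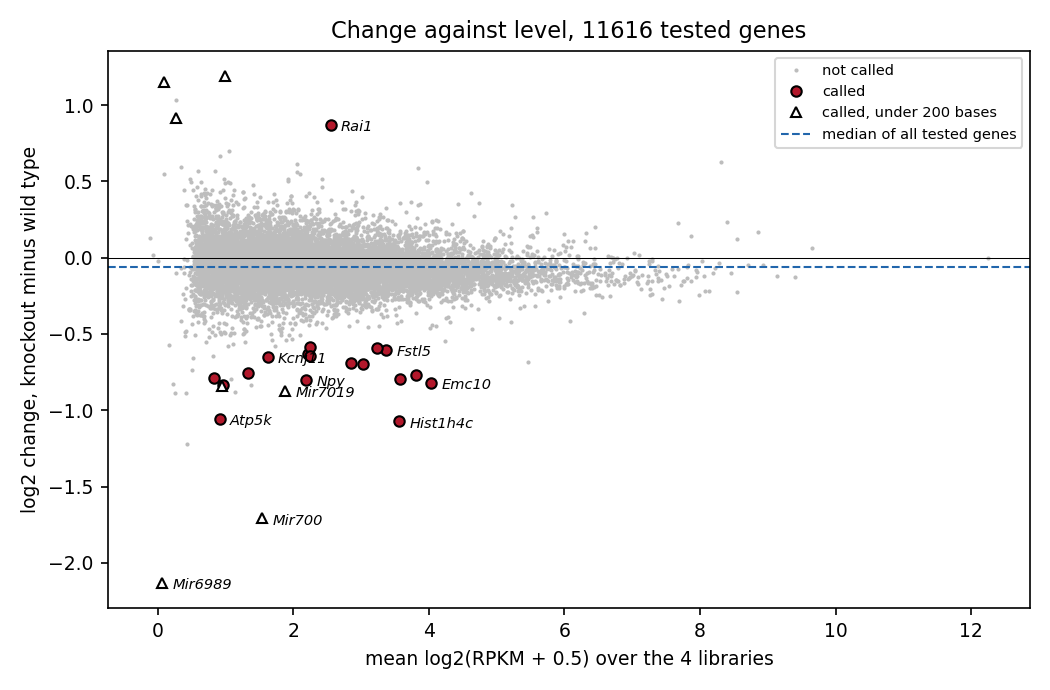
Log2 change of the libraries labelled knockout against wild type plotted on the mean log2(RPKM + 0.5) of the 4 libraries for the 11616 tested genes. Filled circles and open triangles are the 25 called genes, triangles those under 200 bases, which sit at the low end of the level axis. The dashed line is the median of all tested genes, at -0.06.

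Tac1 and Npy were the called neuropeptide genes. Tac1 encodes the precursor of substance P and neurokinin A, and Npy encodes neuropeptide Y, which promotes feeding. Tac1 was at 14.4 and 15.9 RPKM in wild type and at 8.70 and 8.32 RPKM in the libraries labelled knockout. It fell by 0.80 on the log2 scale (SE 0.12, limma adjusted p = 0.000466), and the call held without any 1 library, with adjusted p up to 0.0329. Npy was at 4.78 and 6.41 RPKM in wild type and at 3.10 and 2.84 RPKM in the libraries labelled knockout, a change of -0.80 ± 0.13 (SE, adjusted p = 0.00111). Its wild-type libraries differed more from each other than its libraries labelled knockout, and without wild-type replicate 2 the adjusted p was 0.176. With median-ratio scaling it was 0.197 for Npy and 0.0249 for Tac1.

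Of the 28 tested genes for neuropeptides and hormones, 2 passed and both fell. In 12 of them (42.9%) both libraries labelled knockout were below both wild-type libraries, against 25% of all tested genes, and in 3 (10.7%) above, against 9.15%. The list's median change was -0.15, and -0.08 after median-ratio scaling. Sst, the somatostatin precursor, was at 27.0 and 30.7 RPKM against 19.7 and 21.6 RPKM (adjusted p = 0.209), and Adcyap1, the precursor of PACAP, at 19.7 and 18.0 RPKM against 13.5 and 13.9 RPKM (adjusted p = 0.209). Pomc, the precursor of α-MSH, which curbs feeding, lay in the other direction, with 13.6 and 12.0 RPKM in wild type and 17.3 and 19.2 RPKM in the libraries labelled knockout. Its change of 0.49 ± 0.13 (SE) did not pass (adjusted p = 0.125), and the 2 groups did not overlap.

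None of the 46 tested receptors for neuropeptides and hormones passed in limma, and 7 had an unadjusted p under 0.05, all with a negative change. A negative change was found in 37 of the 46 (80.4%), against 70.1% of all genes, and after median-ratio scaling in 29 (63%), against 49.1% of all genes. Hcrtr2, a receptor for the wake-promoting orexins, had the smallest p of the list, with 3.24 and 3.54 RPKM in wild type and 2.11 and 2.24 RPKM in the libraries labelled knockout (-0.54 ± 0.13 SE, adjusted p = 0.0712). The thyrotropin-releasing hormone receptor Trhr was at 3.41 and 3.21 against 1.91 and 2.50 RPKM, and the neurokinin B receptor Tacr3 at 3.49 and 3.54 against 2.44 and 2.47 RPKM. In both genes the groups did not overlap.

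Htr2c, a serotonin receptor whose activation lowers food intake, had replicate values that lay close together. Wild-type libraries had 10.02 and 9.70 RPKM and those labelled knockout 5.79 and 5.98 RPKM, 59.7% of the wild-type mean. The gene fell by 0.70 on the log2 scale (SE 0.12, limma adjusted p = 0.00188) and stayed called without any 1 library, with adjusted p up to 0.0488. After median-ratio scaling the adjusted p was 0.059. Htr1a, another serotonin receptor, was at 3.45 and 3.84 RPKM against 2.19 and 2.79 RPKM (adjusted p = 0.209). Of the 25 tested monoamine and acetylcholine receptor genes, 1 passed, which was Htr2c, and 11 (44%) were lower without overlap, against 25% of all tested genes. The list's median was -0.10 unscaled and -0.03 after median-ratio scaling.

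Among the 32 tested genes of feeding and energy balance, Npy and Htr2c fell and 0 rose, and 17 changes were negative and 15 positive. The list's median of -0.07 was close to the -0.06 of all genes. Bdnf, a growth factor that restrains feeding through hypothalamic neurons, was at 1.95 and 2.30 RPKM in wild type and at 1.25 and 1.29 RPKM in the libraries labelled knockout. The groups did not overlap, and the change of -0.56 ± 0.15 (SE) did not pass (adjusted p = 0.135). Npy5r, a receptor for neuropeptide Y, was at 1.94 and 2.28 RPKM against 1.204 and 1.51 RPKM (adjusted p = 0.3005).

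Gabra2 encodes an α subunit of the GABA-A receptor, the main inhibitory ion channel of the brain. Wild-type libraries had 16.7 and 19.0 RPKM and those labelled knockout 10.2 and 10.3 RPKM, a change of -0.77 ± 0.12 (SE, limma adjusted p = 0.000919). Without wild-type replicate 2 the adjusted p was 0.102. It was the 1 called gene of 18 tested genes of GABA and glycine receptors, of which 16 are GABA-A or glycine receptor subunits and 2 are GABA-B receptors. In 11 of the 18 (61.1%) both libraries labelled knockout were below both wild-type libraries, against 25% of all tested genes, and in 0 above, against 9.15%. All 11 are among the 16 (68.8%), and both GABA-B genes overlapped between groups. Among the other subunits, Gabrg1 was at 12.2 and 13.7 RPKM against 8.71 and 10.2 RPKM, and the glycine receptor gene Glra3 at 7.77 and 7.20 against 5.45 and 5.96 RPKM. Neither passed, with adjusted p of 0.265 and 0.437. The list's median was -0.15 unscaled and -0.08 after median-ratio scaling.

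Pcdh20, a protocadherin of neuronal surfaces, was at 8.05 and 9.36 RPKM in wild type and at 4.77 and 5.65 RPKM in the libraries labelled knockout (-0.69 ± 0.13 SE, limma adjusted p = 0.00449). Without wild-type replicate 2 the adjusted p was 0.248. Of the 33 tested cadherins and non-clustered protocadherins, Pcdh20 alone passed, and 21 (63.6%) were lower without overlap, against 25% of all tested genes, with a median of -0.19 unscaled and -0.12 after median-ratio scaling. Cdh9 was at 1.77 and 2.26 RPKM against 1.09 and 1.27 RPKM, and Pcdh11x at 5.18 and 5.54 against 3.81 and 3.84 RPKM. Celsr2, a cadherin of planar cell polarity, lay the other way, at 3.74 and 3.42 RPKM against 5.93 and 4.12 RPKM (0.42, adjusted p = 0.404). Of 60 tested synaptic adhesion genes, 0 passed in limma and 9 had an unadjusted p under 0.05, all negative. Over all 11616 genes 661 had one, 497 of them negative. The median of the synaptic adhesion genes was -0.08, with 43 negative changes. After median-ratio scaling it was -0.01, with 32 negative. Slitrk6 had the smallest p of the synaptic adhesion genes, at 3.64 and 3.75 RPKM against 2.66 and 2.26 RPKM (adjusted p = 0.125).

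Kcnj11, the pore of the ATP-sensitive potassium channel that links glucose to neuronal firing, was at 3.40 and 3.31 RPKM in wild type and at 1.92 and 1.999 RPKM in the libraries labelled knockout (-0.65 ± 0.13 SE, adjusted p = 0.0132). Without wild-type replicate 1 its adjusted p was 0.132 and without replicate 2 it was 0.0877. It was the 1 called gene of 43 tested potassium channel genes, whose median was -0.02 and turned positive, at 0.05, after median-ratio scaling. Kcnj10, the glial potassium channel, was at 21.9 and 24.5 RPKM against 29.5 and 30.2 RPKM (0.36, adjusted p = 0.519).

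Emc10, a subunit of the complex that inserts proteins into the endoplasmic reticulum membrane, had the smallest adjusted p among genes that fell and are neither short nor histone genes. Wild-type libraries had 20.5 and 22.2 RPKM and those labelled knockout 11.4 and 12.3 RPKM (-0.82 ± 0.12 SE, adjusted p = 0.000421), and it stayed called without any 1 library, with adjusted p up to 0.0313. Called genes outside the lists included Fstl5 and Cbln2. Fstl5, a secreted follistatin-like protein, was at 11.2 and 13.4 against 7.52 and 8.22 RPKM (-0.61, adjusted p = 0.0178). Cbln2, a secreted synapse organizer that bridges neurexins and their partners, was at 10.3 and 11.7 against 6.40 and 7.96 RPKM (-0.59, adjusted p = 0.0294). Without wild-type replicate 2 the adjusted p of both was far above the threshold, at 1 for Fstl5 and 0.847 for Cbln2, and that of Cbln2 was also 0.0553 without wild-type replicate 1 and 0.279 without knockout replicate 1.

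Several called genes were low. Atp5k, a small subunit of ATP synthase, was at 2.68 and 1.84 RPKM in wild type and at 0.601 and 1.06 RPKM in the libraries labelled knockout (-1.06 ± 0.17 SE, adjusted p = 0.00111). It was the 1 called gene of 73 tested genes of oxidative phosphorylation, whose median was -0.05. Pfdn4, a prefoldin subunit that helps fold actin and tubulin, was at 2.07 and 2.13 against 0.808 and 1.13 RPKM (adjusted p = 0.00571), and Atp5k and Pfdn4 stayed called without any 1 library. Ndst4, a heparan sulfate sulfotransferase, was at 5.62 and 4.94 against 3.03 and 3.45 RPKM (adjusted p = 0.013, and 0.279 without wild-type replicate 1). Ly86, a myeloid surface protein, was at 1.39 and 2.43 against 0.836 and 0.887 RPKM. It entered the test through the wild-type libraries alone and could not be tested without either of them. Alkbh6 was at 5.73 and 4.99 against 3.11 and 3.70 RPKM and lost its call without wild-type replicate 1 (adjusted p = 0.44) or knockout replicate 1 (0.137). Pop4, a subunit of RNase P, was at 5.71 and 5.23 against 2.62 and 4.17 RPKM and lost it without the same libraries (0.167 and 0.706).

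Hist1h4c, which encodes histone H4, had the third smallest p of the table. Wild-type libraries had 15.97 and 17.3 RPKM and those labelled knockout 6.79 and 8.61 RPKM (-1.07 ± 0.13 SE, limma adjusted p = 5.82e-06), and it stayed called without any 1 library. Hist1h2bb fell too, from 2.21 and 3.46 to 1.52 and 1.35 RPKM (adjusted p = 0.0152, and 1 without wild-type replicate 2). Of 35 tested genes of the same cluster 2 passed, and 21 changes were negative and 14 positive. Hist1h4a, which encodes the same protein as Hist1h4c, was at 4.96 and 6.79 RPKM against 9.06 and 7.10 RPKM, so it lay the other way without passing (adjusted p = 0.362). These genes are near-identical copies, and the sources used here do not say how reads matching several of them were counted, so their values are uncertain.

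**Figure D3:**
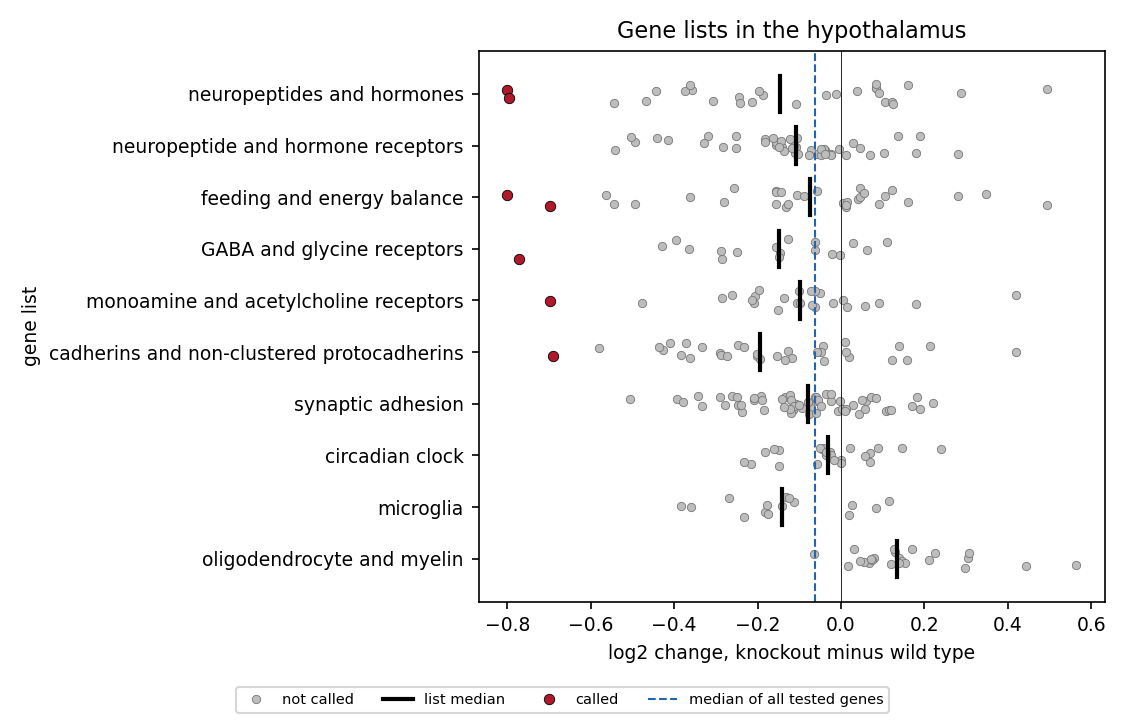
Log2 change of each tested gene in 10 gene lists, 1 point a gene, with called genes in red and list medians as black bars. The dashed blue line is the median of all tested genes at -0.06. The called points (Npy and Htr2c in 2 lists each, Tac1, Gabra2 and Pcdh20 in 1 each) are all on the left, and the myelin list is the one that lies mostly to the right.

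Genes of myelin and oligodendrocytes, which are not targets of the driver, lay in the other direction. Of 24 tested, 0 passed in limma and 5 had an unadjusted p under 0.05, all positive. A positive change was found in 23 of the 24. In 12 (50%) both libraries labelled knockout were above both wild-type libraries, against 9.15% of all genes, both without scaling. After median-ratio scaling 2236 of all 11616 genes lay above in this way, and the share of the list was not computed. The list's median was 0.14, and its summed level was 1000 and 970.1 RPKM in wild type and 1006 and 1170 RPKM in the libraries labelled knockout, so knockout replicate 2 had the highest sum. Opalin, a membrane protein of mature oligodendrocytes, was at 3.41 and 2.48 RPKM against 4.57 and 4.51 RPKM (0.56 ± 0.13 SE, adjusted p = 0.0623). Mbp, the myelin basic protein, was at 196.8 and 181.9 RPKM against 205.6 and 238.1 RPKM. Whether the level of this list has a part in the falls of neuronal genes was not tested.

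Of 15 tested microglial genes, 11 (73.3%) had a negative change, against 70.1% of all genes, 0 passed in limma and 2 had an unadjusted p under 0.05. After median-ratio scaling 11 were still negative, against 49.1% of all genes. Without scaling, both libraries labelled knockout were below both wild-type libraries in 6 (40%), against 25% of all tested genes. They were above in 0, against 9.15%. Their summed level was 80.7 and 94.4 RPKM in wild type and 71.5 and 83.7 RPKM in the libraries labelled knockout, which overlap. The complement gene C1qc was at 11.0 and 11.9 RPKM against 7.85 and 9.55 RPKM (adjusted p = 0.425). Whether this list has a part in the fall of Ly86 was not tested. Thalamic markers, of which 5 were tested, included Ntng1, a netrin-like adhesion gene, at 5.12 and 4.88 RPKM against 3.55 and 3.55 RPKM (adjusted p = 0.206), and the summed level of that list was 87.1 and 93.1 RPKM against 71.1 and 81.3 RPKM. Slc17a6, at 42.5 and 42.4 RPKM against 31.0 and 32.0 RPKM, is part of that sum. The other tested members, Calb2, Plekhg1 and Rgs16, overlapped between groups, with changes of -0.07, 0.07 and 0.05. Striatal markers summed to 95.5 and 101.6 RPKM against 86.2 and 89.1 RPKM, and cortical markers to 61.0 and 67.1 against 68.5 and 73.7 RPKM. The called gene Tac1, at 14.4 and 15.9 against 8.70 and 8.32 RPKM, is part of the striatal sum. The part of these marker lists in the results was not tested.

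The clock genes, of interest because sleep is disturbed in Smith-Magenis syndrome, showed no call. Of 24 tested, 0 passed in limma and 0 had an unadjusted p under 0.05, and changes ran from -0.23 to 0.24. The list's median was -0.03 and turned to 0.04 after median-ratio scaling. Hlf, an output gene of the clock, was at 3.88 and 3.68 RPKM against 4.71 and 4.40 RPKM, and Nr1d1, the repressor REV-ERBα, at 8.03 and 8.995 against 6.39 and 8.01 RPKM. The labels give no time of day for the dissections. Hypothalamic transcription factors also gave 0 calls among 24 tested, with 5 at an unadjusted p under 0.05, 4 lower and 1 higher. Bsx, a homeobox gene of the arcuate and dorsomedial nuclei, had the smallest p, at 1.11 and 1.05 RPKM against 0.752 and 0.4801 RPKM (-0.51, adjusted p = 0.5165). The 1 that was higher, Nr5a1, which marks the ventromedial nucleus, was at 2.43 and 2.56 RPKM against 3.00 and 3.65 RPKM (adjusted p = 0.606).

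Beside Rai1, the protein-coding gene with the smallest p among those higher was Scn4b, a sodium channel β subunit, which did not pass, with 3.15 and 2.63 RPKM in wild type and 5.63 and 3.86 RPKM in the libraries labelled knockout (0.61 ± 0.14 SE, limma adjusted p = 0.0555). Ndn, an imprinted gene of the Prader-Willi region, was at 254.4 and 253.1 RPKM against 354.6 and 435 RPKM. Its wild-type libraries were nearly equal and both libraries labelled knockout were higher, at 155.6% of the mean (0.63 ± 0.19 SE, adjusted p = 0.3005). After median-ratio scaling its adjusted p was 0.0249, the 1 gene called higher there.

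The promoters of 3 genes that fell are shown: the 2 called peptide genes, and Emc10 because it holds the rarest of the motifs searched. The 250 bases before the transcription start are from RefSeq, 5′ to 3′ on the strand of the gene, and capitals mark a match.
Npy (GRCm38.p6 chr6:49822460-49822709, plus strand): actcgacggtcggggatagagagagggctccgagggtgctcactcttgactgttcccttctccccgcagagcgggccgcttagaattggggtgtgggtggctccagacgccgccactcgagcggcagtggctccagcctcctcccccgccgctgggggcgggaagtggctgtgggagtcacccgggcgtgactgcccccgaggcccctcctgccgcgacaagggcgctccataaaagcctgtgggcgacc
Tac1 (GRCm38.p6 chr6:7554811-7555060, plus strand): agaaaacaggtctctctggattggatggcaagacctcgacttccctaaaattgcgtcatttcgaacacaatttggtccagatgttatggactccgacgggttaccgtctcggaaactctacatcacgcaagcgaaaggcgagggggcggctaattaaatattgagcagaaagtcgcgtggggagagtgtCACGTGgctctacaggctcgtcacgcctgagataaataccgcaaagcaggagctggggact
Emc10 (GRCm38.p6 chr7:44496514-44496763, minus strand): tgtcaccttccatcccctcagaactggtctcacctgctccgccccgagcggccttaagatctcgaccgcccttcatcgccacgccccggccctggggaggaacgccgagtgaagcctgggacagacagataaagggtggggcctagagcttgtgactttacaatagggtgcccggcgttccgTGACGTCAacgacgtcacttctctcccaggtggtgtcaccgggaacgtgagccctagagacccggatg
On both strands 3 motifs that do not overlap were searched: TATAAA, a core promoter box, then TGACGTCA, the cyclic AMP response element, and last CACGTG, an E-box. Tac1 holds an E-box that begins 61 bases before the start, and the Emc10 window a cyclic AMP response element that begins 68 bases before it. Among 14 promoters of 12 matched genes that fell, TGACGTCA was found in 3, of Emc10 and Pop4, against 1.55% of all 32851 promoters. The 2 Emc10 windows overlap and hold the same site, at 68 and 163 bases before their starts. That site is therefore counted in both windows, and the 3 matches are not separate sites. CACGTG was found in 1 against 6.02%, and TATAAA in 1 against 12.4%. The window of Npy had none of them. A match describes the letters of the window only.

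The 4 libraries were then set beside the other 3 comparisons of the study, which share no library with them. They differ from hypothalamus in region, driver and strain at once, and in age, so these cannot be told apart. In a fit over all 16 libraries 0 of 12348 genes (0%) differed in effect between hypothalamus and the mean of the other 3 sets with limma, at a smallest adjusted p of 0.0649 for Mir6989, and 151 had an unadjusted p under 0.05. Htr2c was lower in every set: the change was -0.70 in hypothalamus, -0.80 in cortex, -0.75 in striatum at 3 weeks and -0.58 at 12 weeks, and the difference of effects was 0.01 ± 0.23 (SE). Fstl5, Pcdh20, Tac1 and Gabra2 were lower in every set as well. In the same order of the other sets, the changes were -0.66, -0.94 and -0.69 for Fstl5 and -0.34, -0.97 and -0.64 for Pcdh20. They were -0.64, -0.75 and -0.10 for Tac1 and -0.60, -0.27 and -0.27 for Gabra2.

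The changes of Npy were 0.12 in cortex and 0.14 and 0.07 in striatum at 3 and 12 weeks, and the difference of effects of -0.91 ± 0.29 (SE) had an unadjusted p of 0.00676 and did not pass. Kcnj11 had changes of -0.06, -0.11 and 0.10 in these sets, with a difference of -0.63 ± 0.19 (SE). Of the 21 genes that fell in hypothalamus, 13 had a negative change in cortex, 16 in striatum at 3 weeks and 10 at 12 weeks, where 55.3%, 73.5% and 29.3% of all 11616 genes had one. The 13 in cortex include Mir6989, whose change there was 0 but for a rounding residue.

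**Figure D4:**
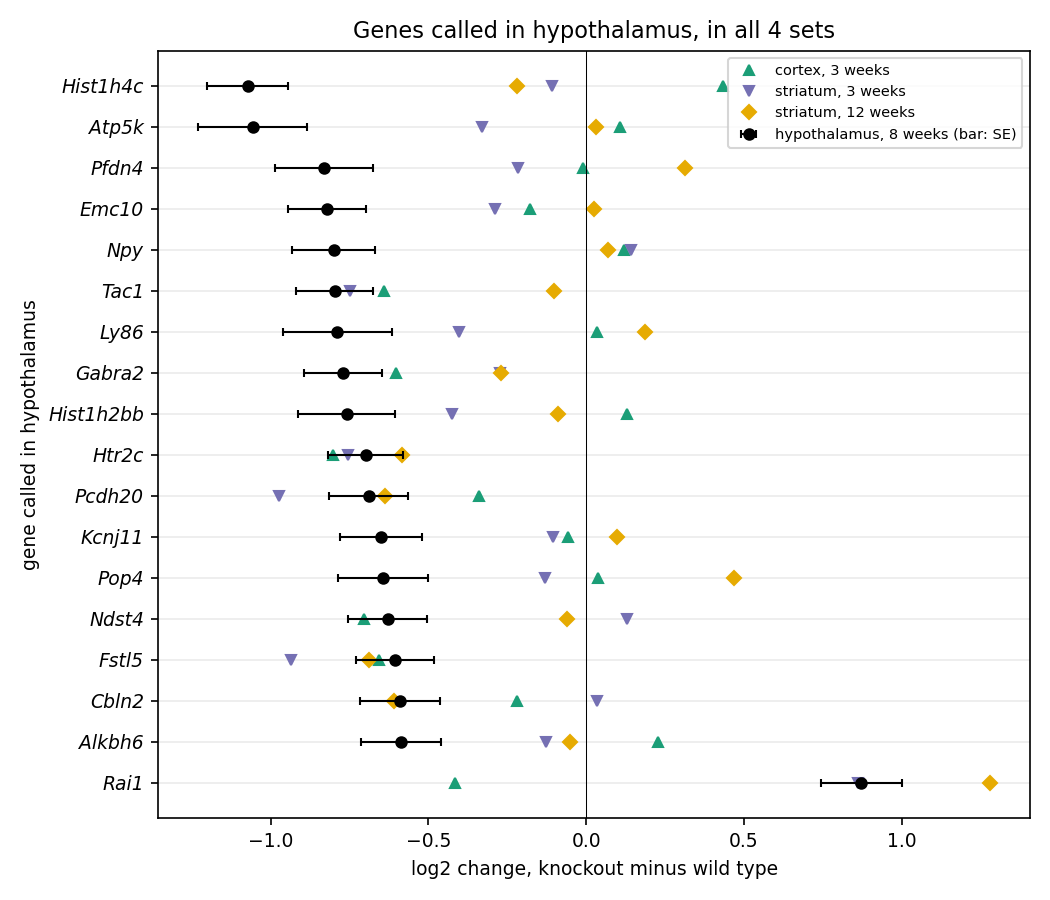
Log2 change of the 18 called genes of 200 bases or more in hypothalamus (black circles, bars are SE, n = 2 libraries a group) and in cortex at 3 weeks, striatum at 3 weeks and striatum at 12 weeks. For Htr2c, Fstl5, Pcdh20, Tac1 and Gabra2 all 4 symbols lie left of 0, while for Npy the other 3 sets lie at 0.07 to 0.14.

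The calls depend on the 4 libraries and on their scaling. The number of genes that fell was 25, 26, 28 and 140 and of those that rose 16, 7, 24 and 33 when wild-type replicates 1 and 2 and knockout replicates 1 and 2 were left out in that order, and 8 of the 25 called genes were called in all 4 of these fits. After median-ratio scaling, 6 genes fell (Mir700, Mir6989, Hist1h4c, Emc10, Tac1 and Gabra2) and 1 rose (Ndn), and the calls of the other 15 genes that fell and of the 4 that rose were lost. The log2 change after scaling was -0.63 for Htr2c in place of -0.70, -0.73 for Npy in place of -0.80 and 0.94 for Rai1 in place of 0.87, and the median of all genes moved from -0.06 to 0.0025. The prior degrees of freedom, which set how much spread is borrowed from other genes, were 6.44 in place of 29.6. The split of genes at an unadjusted p under 0.05 moved from 497 lower and 164 higher to 419 lower and 486 higher. Genes whose groups did not overlap moved from 2906 lower and 1063 higher to 2238 lower and 2236 higher. The shares of non-overlap given above for the gene lists are of unscaled values.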

How the data were processed

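RNA was sequenced from 16 brain samples, of which the 4 hypothalamic ones are described here. The submitters' processing notes name the tools CASAVA 1.8.2, cutadapt 1.6 and TopHat2, and the mouse genome mm9. The authors deposited RPKM values for 24176 gene symbols. How reads were counted, by strand or not, where multiple matches went and which library total underlies RPKM is not stated in the sources used here, so overlapping genes and near-identical copies are uncertain. From the RPKM step of short genes, libraries held 43200000 to 46500000 counted units. Of the 141 to 166 short-gene values used per library, 99.3% to 100% were whole within 0.05 and 83.6% to 88.3% were even, so read ends may have been counted separately.

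The test used log2(RPKM + 0.5) of genes reaching 1 RPKM in 2 or more of the 4 libraries, in limma 3.58.1 (R 4.3.3), with a variance trend and Benjamini-Hochberg adjustment over 11616 genes, after the script was tested on simulated data. Residual degrees of freedom were 2 and the prior added 29.6. Changes are on this scale and understate those of low genes. The difference between hypothalamus and the other sets came from 1 fit over all 16 libraries. The members and gene lists were chosen with earlier results of these data known. Genes named are Rai1, Slc17a6, up to 20 called per direction by size with no overlap, the smallest p up to 5 where fewer than 5 are called, and called members and up to 4 of smallest p in each list; host genes of short RNAs, Slc17a7, Avp, Mbp, Pmch, Adcyap1, Npy5r and Celsr2 and the histone genes not called were chosen after their values were seen. RefSeq tables (GRCm38.p6) gave sequences, gene spans and gene order, with 11591 symbols matched, and no coordinates are given for mm9. Alternatives were pseudocounts of 0.1 and 1, 2 filters, median-ratio scaling, no variance trend, a replicate block, each library left out, and all 16 libraries in 1 fit; leaving out genes under 200 bases was chosen after seeing the data.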

Additional observations from a re-analysis of the deposited data

How the results depend on the processing

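With 2 libraries a group, 2 residual degrees of freedom and no known count model, most calls rest on the spread borrowed from other genes. The 21 genes lower and 4 higher became 20 and 2 with a pseudocount of 0.1, and 0 and 0 in limma with no filter on low values (781 genes at an unadjusted p under 0.05), where the prior degrees of freedom dropped to 3.52; the cause was not tested. Median-ratio scaling gave 6 and 1, and all 16 libraries in 1 fit gave 1 and 0 (217 at an unadjusted p under 0.05), the 1 being Mir6989. With each library left out in turn, 25 to 140 genes were lower and 7 to 33 higher; the lone library was then assumed to vary like the other group. The count whose effect differed from the other 3 sets was 0, and it was 1 with a pseudocount of 1 (adjusted p = 0.0369) and 8 with no filter (smallest adjusted p = 1.82e-07). With the replicate block, 22 genes were lower, 13 of them among the 21, and 4 higher, 2 of them among the 4, and 0 differed from the other sets; libraries of the same number deviated together at 0.154 over only 2 pairs, so the numbers are not taken to pair them. Leaving out genes under 200 bases gave 20 and 3. Counts with a pseudocount of 1, a mean filter or no variance trend stayed within 1.5 times.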

Other observations

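Of 17 longer genes that fell, 4 lie within 200 tested genes of Slc17a6 in RefSeq order, a window chosen after seeing the values. Emc10, Kcnj11 and Pop4 are within 100 tested genes of it, where 3 of 200 genes of 200 bases or more were called, against 15 of 11366 elsewhere, and Alkbh6 is within 200. In the window of 100 a share of 9% had an unadjusted p under 0.05, against 5.43% elsewhere, and around Rai1 it was 8.5% with 0 called in limma and 17 of 200 at an unadjusted p under 0.05. In the closest window, 50 genes on each side of Slc17a6, 1 gene was called and 4% had an unadjusted p under 0.05, against 5.5% elsewhere. In the wider window of 200 on each side of Slc17a6 the share was 6.25%, against 5.46% elsewhere.

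Genes outside the accounts above lay apart by group without passing. Sema3c, a secreted guidance cue, was at 4.21 and 5.02 RPKM in wild type and at 3.05 and 3.15 RPKM in the libraries labelled knockout (limma adjusted p = 0.111). Grin2a, an NMDA receptor subunit, was at 5.33 and 5.54 RPKM against 6.84 and 6.998 RPKM (adjusted p = 0.576). Fgf13, which modulates sodium channels, was at 5.31 and 5.46 RPKM against 4.04 and 3.75 RPKM (adjusted p = 0.241).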
